A study of Homo sapiens with 13 samples.

Results

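The 37 genes described here are interferon-stimulated genes, chosen as a list of symbols by a rule that uses no measured value, though with earlier results of these data known. All 37 were found among the 63241 gene IDs of the count tables, and all 37 passed the filter on low counts, which left 16756 genes for testing. The list was set up to look for a response to nucleic acid released from mitochondria. Release into the cytosol was not itself measured.

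The libraries are poly-A selected RNA-seq of AC16, an established human line that came from the fusion of ventricular cardiomyocytes with transformed fibroblasts. There were 3 control libraries, 3 libraries labelled FCCP, 4 labelled preconditioning and 3 labelled preconditioning+FCCP. FCCP is an uncoupler that carries protons across the inner mitochondrial membrane. Preconditioning is, by the series title, optogenetic and aimed at mitochondria, and the design text names a construct, mOpto, that cells expressed. The labels call the genotype wildtype in all 13 libraries, and the dose and duration of FCCP and of the light, and whether control and FCCP cells carried mOpto or were illuminated, are not given in the sources used here. No label ties replicates to separate cultures, so the p-values rest on library-to-library spread alone, part or all of it possibly technical. The labelled cell type is myocyte. Of 14 cardiomyocyte markers 5 passed the filter, their summed level was 1.78 to 8.80 CPM in a library, and TNNT2, cardiac troponin T, had 0 counts. All 10 fibroblast markers passed.

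Cells detect misplaced nucleic acid with cytosolic sensors: RIG-I and MDA5 (the product of IFIH1) bind viral-type RNA and signal through MAVS on the mitochondrial surface, and cGAS binds DNA and signals through STING. Both routes activate the kinases TBK1 and IKKε and the factors IRF3 and IRF7, which switch on interferon genes. Secreted type I interferon then acts through JAK kinases on a complex that contains STAT2 and IRF9, and this complex binds the interferon-stimulated response element in the promoters of effector genes. Several of these genes, the IFIT genes among them, can also be switched on directly by IRF factors without interferon. Their products bind or cut viral RNA, tag proteins with ISG15, or block entry, replication and budding of viruses.

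Promoter sequences are shown for 6 members that stand for the strongest levels and the clearest differences in the list: ISG15, IFI6 and OAS3, the highest in mean CPM of those with an entry, and SAMD9, IFIT3 and IFIT1, which had the smallest adjusted p of the others with an entry. Each is 250 bases before to 50 bases after a transcription start, from RefSeq (GRCh38.p14), read 5′ to 3′ on the strand of the gene. ISG15 lies at chr1:1013247-1013546 (+ strand), IFI6 at chr1:27672143-27672442 (− strand), OAS3 at chr12:112938224-112938523 (+ strand), SAMD9 at chr7:93117930-93118229 (− strand), IFIT3, the first of its 2 starts, at chr10:89327747-89328046 (+ strand) and IFIT1 at chr10:89392373-89392672 (+ strand). Capitals mark every match to the core of the interferon-stimulated response element, GAAA and GAAA parted by any 2 bases, on either strand.
ISG15: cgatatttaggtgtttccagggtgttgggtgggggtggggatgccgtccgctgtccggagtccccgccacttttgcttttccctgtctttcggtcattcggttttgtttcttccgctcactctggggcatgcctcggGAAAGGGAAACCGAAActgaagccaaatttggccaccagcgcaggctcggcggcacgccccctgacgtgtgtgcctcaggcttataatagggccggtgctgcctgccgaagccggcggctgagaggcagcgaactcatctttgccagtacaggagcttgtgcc
IFI6: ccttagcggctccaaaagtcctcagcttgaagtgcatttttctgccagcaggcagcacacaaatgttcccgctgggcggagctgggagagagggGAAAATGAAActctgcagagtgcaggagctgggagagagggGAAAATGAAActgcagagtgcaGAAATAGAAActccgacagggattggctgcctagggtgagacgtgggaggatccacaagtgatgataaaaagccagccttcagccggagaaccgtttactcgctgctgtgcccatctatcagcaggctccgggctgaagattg
OAS3: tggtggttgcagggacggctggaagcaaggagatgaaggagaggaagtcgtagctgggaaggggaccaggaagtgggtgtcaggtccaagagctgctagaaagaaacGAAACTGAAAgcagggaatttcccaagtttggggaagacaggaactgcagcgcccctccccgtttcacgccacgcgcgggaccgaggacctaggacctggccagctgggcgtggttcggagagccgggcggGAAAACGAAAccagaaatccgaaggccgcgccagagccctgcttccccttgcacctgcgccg
SAMD9: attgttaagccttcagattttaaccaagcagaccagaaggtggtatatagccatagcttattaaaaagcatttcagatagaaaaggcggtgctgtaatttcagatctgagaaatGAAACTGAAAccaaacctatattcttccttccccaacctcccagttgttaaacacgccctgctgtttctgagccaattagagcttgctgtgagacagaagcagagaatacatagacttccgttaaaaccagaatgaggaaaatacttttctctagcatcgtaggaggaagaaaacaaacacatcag
IFIT3: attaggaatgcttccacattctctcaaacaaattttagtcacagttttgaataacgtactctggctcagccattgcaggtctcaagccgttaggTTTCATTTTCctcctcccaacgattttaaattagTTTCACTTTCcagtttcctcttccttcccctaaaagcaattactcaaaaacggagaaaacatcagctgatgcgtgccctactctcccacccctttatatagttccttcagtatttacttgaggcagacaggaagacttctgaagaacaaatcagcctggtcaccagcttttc
IFIT1: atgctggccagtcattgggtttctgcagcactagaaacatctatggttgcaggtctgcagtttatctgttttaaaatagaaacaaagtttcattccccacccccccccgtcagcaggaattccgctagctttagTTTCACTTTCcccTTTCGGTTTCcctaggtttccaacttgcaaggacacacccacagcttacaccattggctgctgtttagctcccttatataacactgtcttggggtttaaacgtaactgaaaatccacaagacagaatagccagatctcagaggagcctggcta

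In ISG15 the 2 matches overlap and are drawn as one run. The core was found in 19 of the 30 members that had an entry (63.3%), and in 4.38% of the 27305 genes of the table. Per promoter, this was 23 of 41 member promoters (56.1%) against 3.57% of all 35116. The palindromic site of STAT dimers, TTC and GAA parted by any 3 bases, was found in 9 of the 30 members (30.0%), among them IRF1, IRF9 and IFI35, and in 9.38% of all genes. In BST2, IFI27 and MX1 matches to both motifs shared bases. Matches are strings of letters and not measured binding. IFIT2, OAS2, IRF7, USP18, MX2, OASL and TRIM22 had no entry.

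Libraries held 14970803 to 20636229 gene counts. Multiply aligned reads, as a share of each library, parted them into a higher set (control 1 and 2, FCCP 1 to 3 and preconditioning+FCCP 3) and a lower set (control 3, preconditioning 1 to 4 and preconditioning+FCCP 1 and 2), so all FCCP libraries lay in one set and all preconditioning libraries in the other. Levels are CPM, a gene's share of the counts of its library after TMM scaling. Differences are log2 values ± SE with adjusted p from edgeR's quasi-likelihood test with Benjamini-Hochberg adjustment over 16756 genes, with calls made at adjusted p < 0.05. In bulk RNA, fewer cells that express a gene and less RNA per cell cannot be told apart.

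Per kilobase of exon, ISG15, the ubiquitin-like modifier, had the highest level of the list at 256 CPM per kb over the 13 libraries. IFI6, a small mitochondrial and endoplasmic reticulum protein, followed at 193 CPM per kb, then OASL at 37.5, IFI44 at 37, IFIT3 at 34.0 and IRF7 at 17.6 CPM per kb. At the other end stood RSAD2, the antiviral enzyme viperin, at 0.292, RIGI, the RIG-I sensor, at 0.242, and its neighbour in rank CMPK2, a mitochondrial nucleotide kinase, at 0.0900 CPM per kb. So the list ranged from abundant transcripts to ones near the limit of detection, and textbook members such as MX1 (1.57 CPM per kb) lay in the lower part of it.

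ISG15 stood at 492, 222 and 308 CPM in the control libraries, 212, 161 and 302 with FCCP, 248, 262, 144 and 146 with preconditioning and 60.4, 147 and 429.6 with both. Its groups overlapped in every comparison, and its largest difference was −0.77 ± 0.47 in preconditioning against control (adjusted p = 0.243). IFI44, a cytosolic protein of unsettled function, stood at 107, 60.2 and 105 CPM in control, 52.8, 40.4 and 45.0 with FCCP, 137, 129, 50.2 and 75.4 with preconditioning and 14.7, 51.9 and 110.2 with both. The 3 preconditioning+FCCP libraries of IFI44 covered a wider range than the other groups, and IFI44 passed in no comparison.

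The members' median spread within a group was above that of all genes in each of the 4 groups. The median coefficient of variation over the 37 members was 40.8% in control, 25.5% with FCCP, 34.4% with preconditioning and 52.3% with preconditioning+FCCP, where the medians of all genes tested were 27.4%, 24.9%, 13.5% and 23.6%. Within a group the members moved by library: control 2 was the lowest control library for 33 of 37 members (27.9% of all genes), preconditioning 3 the lowest of its group for 34 (34.4% of all genes), and preconditioning+FCCP 1 the lowest of its group for 31 (34.8%). Preconditioning+FCCP 3 was the highest of its group for 26 members (41.5% of all genes). The mean log2 CPM of the 37 members was 4.30, 3.44 and 4.56 in control 1 to 3, 3.73, 3.46 and 3.64 in FCCP 1 to 3, 4.83, 4.91, 3.71 and 4.33 in preconditioning 1 to 4 and 2.89, 3.97 and 4.40 in preconditioning+FCCP 1 to 3. These means overlap between control and each other group.

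**Figure D1:**
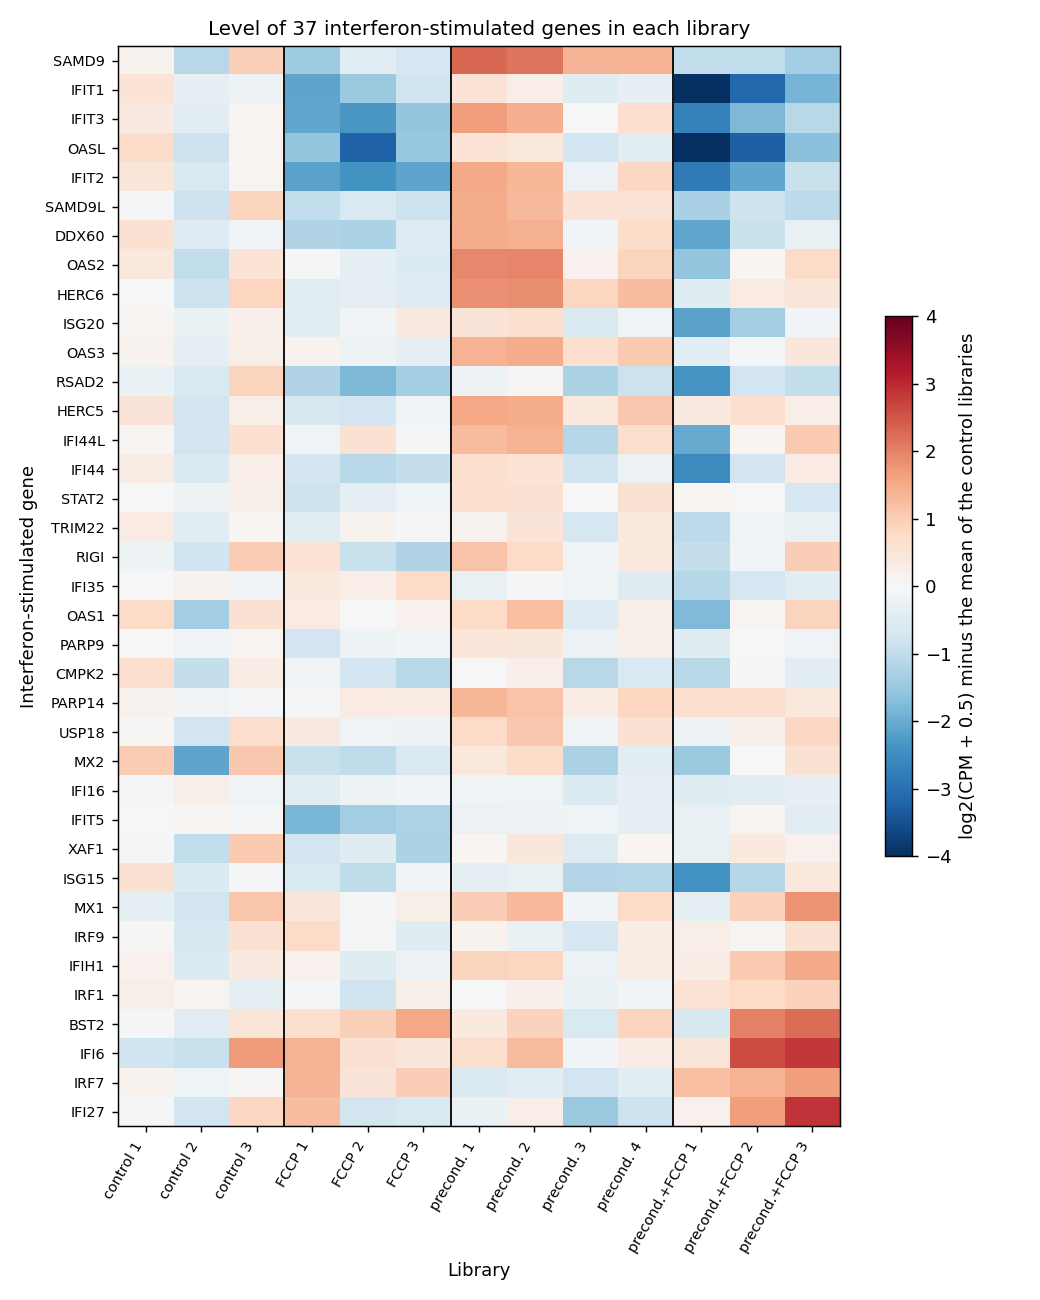
Heat map of log2(CPM + 0.5) for the 37 interferon-stimulated genes (rows, ordered by their change in preconditioning+FCCP against preconditioning) in the 13 libraries (columns, black lines between groups), minus the mean of the control libraries. Control 2, preconditioning 3 and preconditioning+FCCP 1 are the lowest libraries of their groups for most rows, and the top rows, SAMD9, IFIT1, IFIT3, OASL and IFIT2, are lower in every preconditioning+FCCP library than in any preconditioning library.

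The first comparison asked how FCCP alone affected the list. RNA of 3 of the 4 IFIT genes was lower and that of IRF7 higher, while 33 members did not pass the test. IFIT2, IFIT3 and IFIT5 fell and IRF7, the interferon-inducible factor that acts downstream of the nucleic acid sensors, rose. This was 4 of 37 members called (10.8%, 1 higher and 3 lower), where 3.52% of all genes were called (1.6% higher, 1.92% lower). The median log2 difference of the 37 members was −0.47, against −0.04 over all genes tested, and 28 members had negative values.

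IFIT2, whose product binds AU-rich RNA and partners IFIT1 and IFIT3, stood at 99.1, 45.5 and 76.5 CPM in control and at 15.6, 12.8 and 16.0 CPM with FCCP. IFIT3, which stabilises IFIT1 on RNA, stood at 112, 65.3 and 92.7 CPM in control and at 20.5, 17.1 and 29.5 CPM with FCCP. In both genes every FCCP library lay below every control library, and the differences were −2.32 ± 0.47 (adjusted p = 0.0194) and −2.01 ± 0.42 (adjusted p = 0.0221). IFIT5, an IFIT protein that binds RNA ends on its own, stood at 26.7, 28.6 and 26.7 CPM in control and at 7.29, 10.0 and 11.3 with FCCP. Its control libraries lay close together and well above the FCCP libraries (−1.52 ± 0.21, adjusted p = 0.00377). IRF7 stood at 33.1, 26.8 and 30.8 CPM in control and at 77.4, 43.3 and 59.8 CPM with FCCP, again without overlap (0.99 ± 0.21, adjusted p = 0.0228).

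IFIT1, which binds the cap of foreign RNA, had 112, 59.6 and 65.2 CPM in control and 17.3, 26.6 and 43.3 with FCCP and did not pass (−1.44 ± 0.47, adjusted p = 0.0962). OASL, a catalytically inactive relative of the oligoadenylate synthetases that assists RIG-I, had 329, 110.5 and 216 CPM in control and 66.5, 20.5 and 69.7 with FCCP and did not pass either (−2.06 ± 0.70, adjusted p = 0.113). Neither gene's groups overlapped, but their libraries spread widely within groups. Among the oligoadenylate synthetases, the MX GTPases, the ISG15 system, the RNA helicases and the PARP genes no member passed. The call of IFIT5 held without any 1 library, but ended with the 2 compared groups fitted alone (adjusted p = 0.109) and within the higher set of libraries (0.0638), at log2 differences of −1.48 and −1.50. That of IRF7 ended in both as well (0.198 and 0.151). IFIT2 lost its call without FCCP 2 (adjusted p = 0.0696) and FCCP 3 (0.0620), and IFIT3 without control 1 (0.0520) and FCCP 2 (0.0792). IRF7 lost its call without control 2 (0.0709) and FCCP 3 (0.0621). This left 2 members called without FCCP 2 and 2 without FCCP 3, where 0.818% and 1.06% of all genes were called.

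**Figure D2:**
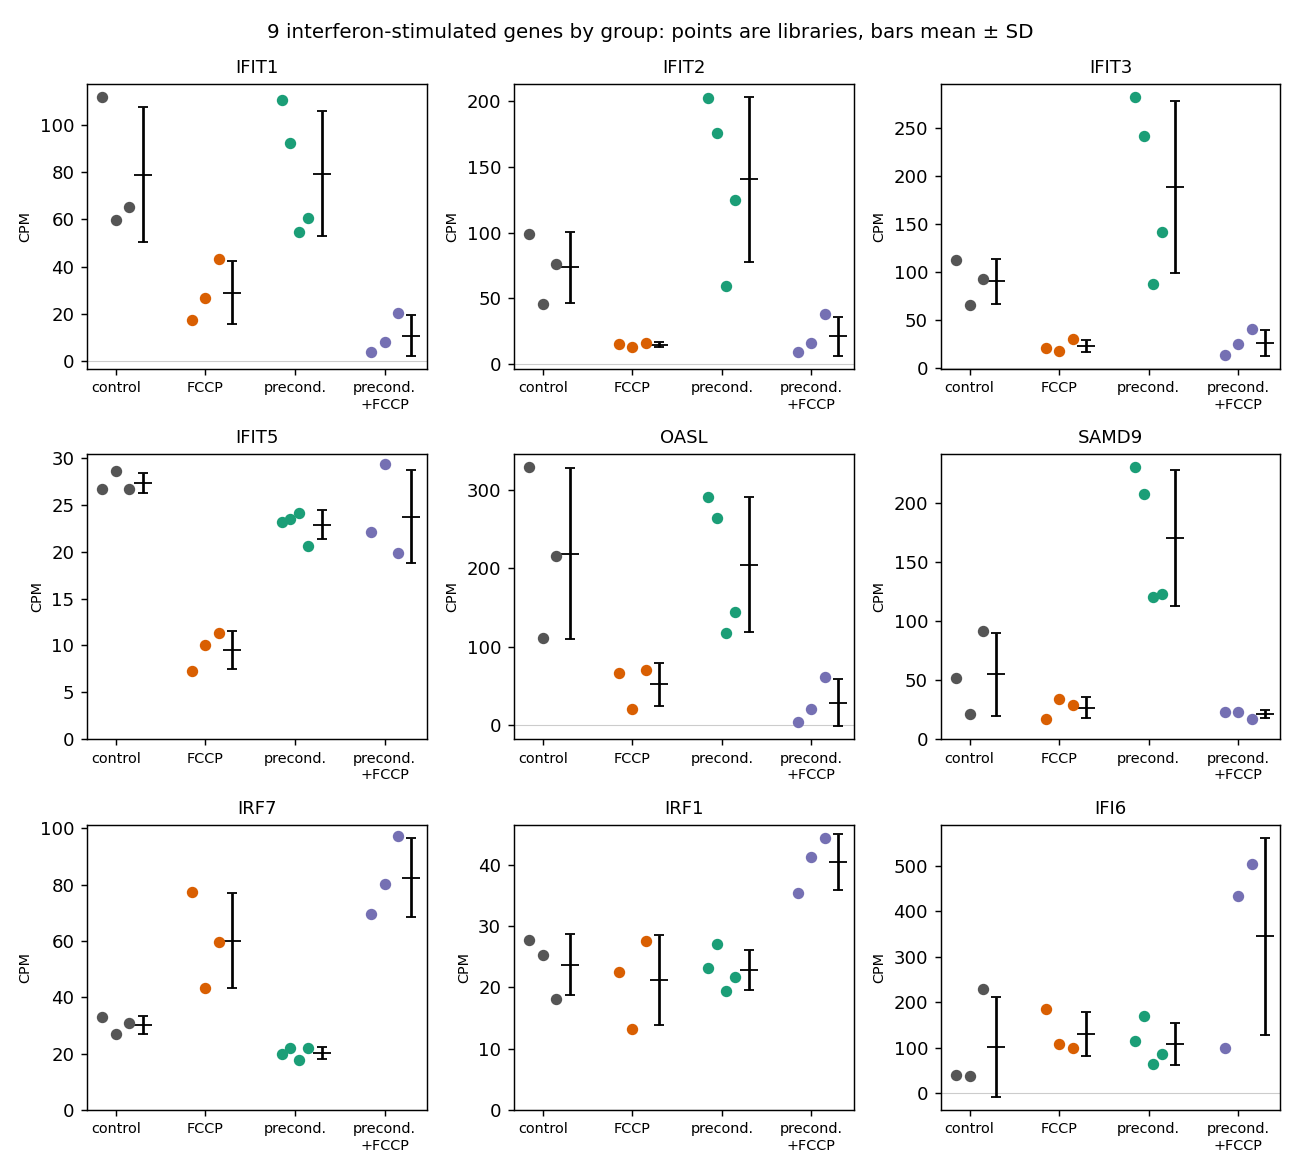
Levels of 9 members in CPM (vertical axes, linear, drawn separately for each gene) by group. Points are libraries and bars the mean ± SD. IFIT2, IFIT3 and IFIT5 are below control in every FCCP library, IFIT5 reaches 19.8 to 29.3 CPM with preconditioning+FCCP, and IRF7 and IRF1 are highest with preconditioning+FCCP.

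The second comparison asked what FCCP did in preconditioned cells, and is independent of the first in its libraries. Here 16 of 37 members were called (43.2%), where 39.4% of all genes were called. The members' count is thus near the background. Its direction was uneven: 12 members fell and 4 rose, against 19.2% of all genes lower and 20.2% higher. Those that fell were IFIT1, IFIT2, IFIT3, OAS2, OAS3, OASL, SAMD9, SAMD9L, DDX60, HERC6, ISG20 and STAT2, and those that rose were IRF7, IRF1, IFI6 and IFI27. The median log2 difference was −0.48, against 0.02 over all genes.

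Among RNA-binding effectors, IFIT1 stood at 110.3, 92.2, 54.5 and 60.3 CPM with preconditioning and at 4.05, 8.13 and 20.5 CPM with preconditioning+FCCP (−2.87 ± 0.48, adjusted p = 0.000349). IFIT2 stood at 202, 176, 59.1 and 125 and at 9.38, 16.4 and 37.9 CPM (−2.73 ± 0.46, adjusted p = 0.000380). IFIT3 stood at 282, 241, 87.5 and 141 and at 13.2, 24.6 and 40.2 CPM (−2.85 ± 0.42, adjusted p = 0.000144). No library of one group reached the other in these 3 genes, and preconditioning 3 was the lowest of its group in each. IFIT5 showed no such fall, with 23.1, 23.5, 24.1 and 20.6 CPM with preconditioning and 22.1, 29.3 and 19.8 CPM with both (0.06 ± 0.19, adjusted p = 0.841).

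In the oligoadenylate synthetase family 3 of 4 members fell, OAS2 and OAS3, whose products make the second messenger that activates RNase L, and the inactive relative OASL. OAS3, the member that makes long oligoadenylates, stood at 217, 231, 132 and 172 CPM with preconditioning and 62.1, 77.4 and 113 CPM with both (−1.16 ± 0.24, adjusted p = 0.00178). OASL stood at 290.5, 264, 118 and 144 and 3.59, 20.2 and 61.9 CPM (−2.84 ± 0.70, adjusted p = 0.00500). OASL was lowest in preconditioning+FCCP 1 and highest there in preconditioning+FCCP 3, and neither gene's groups overlapped. OAS2 also fell (−1.41 ± 0.52, adjusted p = 0.0403), with groups that overlapped, while OAS1 did not pass (−0.48 ± 0.58, adjusted p = 0.537).

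SAMD9, which restricts poxviruses and translation, had the largest fall of the list. It stood at 230.4, 207, 120.2 and 122 CPM with preconditioning and at 23.4, 23.2 and 17.4 CPM with both (−2.99 ± 0.42, adjusted p = 9.74e-05). Its neighbour and relative SAMD9L stood at 75.9, 66.8, 39.4 and 39.1 and 10.7, 14.8 and 12.9 CPM (−2.11 ± 0.35, adjusted p = 0.000369). In both genes every preconditioning library was above every preconditioning+FCCP library. DDX60, a helicase that assists RIG-I, stood at 111, 106, 36.3 and 66.0 and 9.09, 21.1 and 32.0 CPM (−1.95 ± 0.43, adjusted p = 0.00259). HERC6, a ligase of the HERC family, stood at 39.5, 40.3, 19.6 and 25.7 and 7.53, 13.5 and 15.2 CPM (−1.37 ± 0.37, adjusted p = 0.00835). Neither of these 2 overlapped between groups. The nuclease ISG20 (−1.20 ± 0.42, adjusted p = 0.0326) and the factor STAT2 (−0.65 ± 0.22, adjusted p = 0.0313) fell with overlapping groups.

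IRF7 had the smallest p of the list, at 19.9, 21.9, 17.5 and 22.0 CPM with preconditioning and 69.6, 80.3 and 97.4 CPM with both (2.02 ± 0.20, adjusted p = 8.48e-06). IRF1, a factor induced by both interferon types and by NF-κB, stood at 23.2, 27.1, 19.4 and 21.6 and 35.4, 41.3 and 44.4 CPM (0.82 ± 0.23, adjusted p = 0.0108). Every preconditioning+FCCP library was above every preconditioning library in both. IFI27, a small mitochondrial protein, stood at 1.90, 2.96, 0.533 and 1.14 and 2.72, 8.79 and 21.0 CPM (2.72 ± 0.71, adjusted p = 0.00685). IFI6 stood at 114, 169.5, 64.7 and 85.6 and 99.2, 434 and 505 CPM (1.67 ± 0.59, adjusted p = 0.0331). In both small IFI genes the groups overlapped and preconditioning+FCCP 3 was the highest library. IFI27 lost its call without that library (log2 difference 1.80, adjusted p = 0.0707), and IFI6 without any 1 of preconditioning 1, 3 and 4 and preconditioning+FCCP 2 and 3 (adjusted p 0.0634 to 0.148).

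Of the 16 calls, 11 held without each of the 13 libraries in turn: DDX60, HERC6, IFIT1, IFIT2, IFIT3, IRF1, IRF7, OAS3, OASL, SAMD9 and SAMD9L. The calls of OAS2, ISG20 and STAT2 ended without preconditioning 1 (adjusted p = 0.105, 0.0813 and 0.0784) and without preconditioning 2 (0.108, 0.0925 and 0.0730). OAS2 and ISG20 also lost theirs without preconditioning+FCCP 1 or 2, and STAT2 without preconditioning 4 or preconditioning+FCCP 3. Without preconditioning+FCCP 3 ISG20 was at −2.02 (adjusted p = 0.00166). Within the lower set of libraries alone 21 members were called (56.8%), 4 higher and 17 lower, where 52% of all genes were called.

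Side by side, IFIT2 and IFIT3 fell with FCCP both without and with preconditioning and IRF7 rose in both. The log2 differences of IFIT2 were −2.32 and −2.73, and those of IFIT3 −2.01 and −2.85. OASL differed by −2.06 (not called) and −2.84, and IFIT1 by −1.44 (not called) and −2.87.

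**Figure D3:**
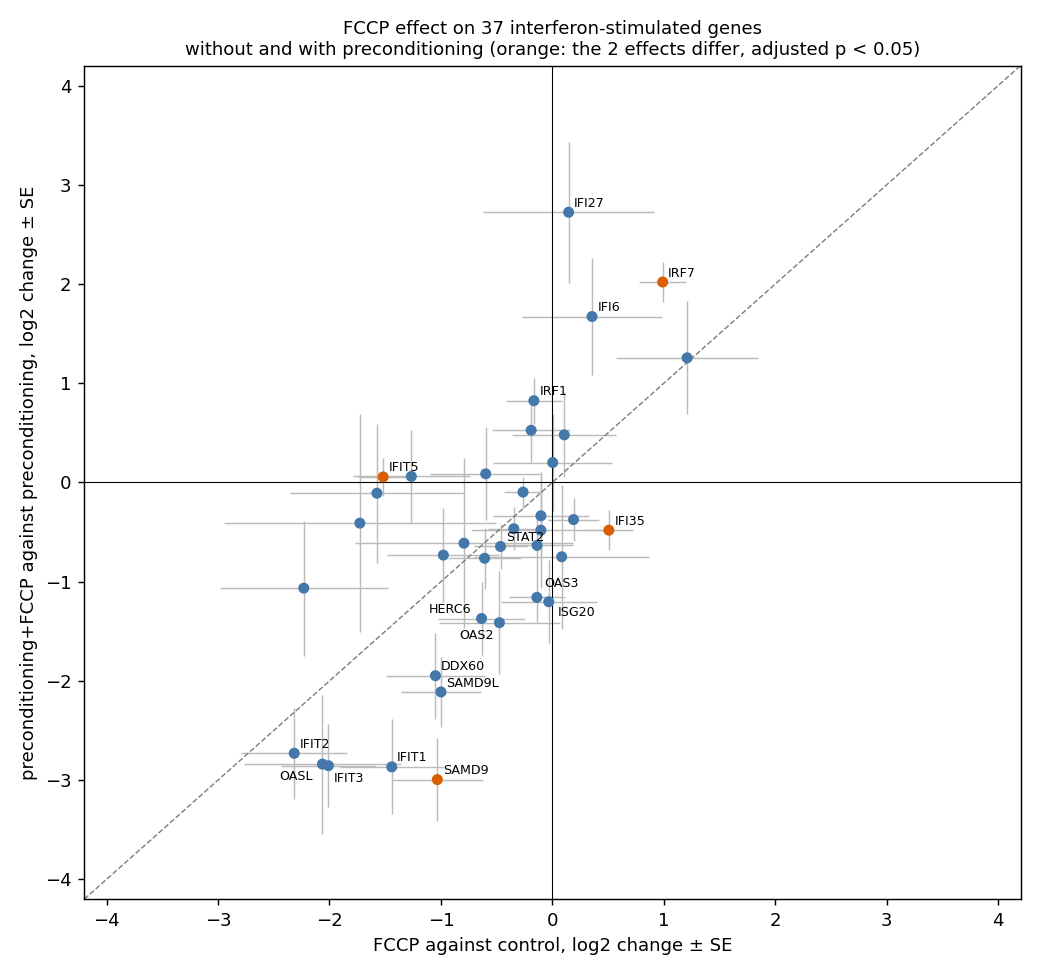
Scatter of the log2 change ± SE with FCCP in cells without preconditioning (horizontal) and with it (vertical) for the 37 members, with a dashed line of equal change. Members called in either effect or in their difference are named. IFIT5, IRF7, SAMD9 and IFI35, in orange, differed between the 2 effects. IFIT2, IFIT3 and OASL lie below the line, with IFIT2 nearer to it than IFIT3 and OASL.

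The interaction tested whether the FCCP effect differed with preconditioning. It was called for 4 members (10.8%), where 19% of all genes were called (9.38% higher, 9.6% lower). The FCCP effect on IFIT5 was −1.52 ± 0.21 without and 0.06 ± 0.19 with preconditioning, a difference of 1.57 ± 0.28 (adjusted p = 0.00236). The effect on IRF7 was 0.99 ± 0.21 and 2.02 ± 0.20, a difference of 1.03 ± 0.29 (adjusted p = 0.0217). For SAMD9 it was −1.03 ± 0.41 and −2.99 ± 0.42, a difference of −1.96 ± 0.56 (adjusted p = 0.0241). IFIT5 thus fell where cells were not preconditioned and was near 0 on the log2 scale where they were, while the rise of IRF7 and the negative difference of SAMD9 were larger in preconditioned cells. IFI35, which partners NMI in signalling, differed by 0.51 ± 0.21 without and −0.48 ± 0.20 with preconditioning, neither called, and these effects had opposite signs (−0.99 ± 0.29, adjusted p = 0.0301). IFIT5 kept its call without any 1 library. The call of IRF7 ended without control 1 (adjusted p = 0.0564), FCCP 2 (0.0677), FCCP 3 (0.0569), preconditioning+FCCP 2 (0.0534) or 3 (0.0583), that of SAMD9 without FCCP 2 (0.0617) or preconditioning 1 (0.0506), and that of IFI35 without control 1 (0.0567), FCCP 3 (0.0862), preconditioning 1 (0.0505), 2 (0.0655) or 3 (0.0544), or preconditioning+FCCP 1 (0.0606) or 2 (0.0623). The count of 4 was 2 without control 1, FCCP 2, preconditioning 1 or preconditioning+FCCP 2, and 7 without control 3. Of all genes 11.6% to 14.3% were called in the former fits and 23% without control 3.

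The next comparison asked what preconditioning alone did. Here 5 members rose and IRF7 fell. This was 6 of 37 members (16.2%, 5 higher and 1 lower), where 23.6% of all genes were called (10.5% higher, 13% lower). The median log2 difference was 0.26 for the members and −0.02 for all genes. Those that rose were OAS3, PARP14, SAMD9, HERC6 and HERC5.

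OAS3 stood at 90.5, 63.8 and 97.0 CPM in control and 217, 231, 132 and 172 CPM with preconditioning (1.17 ± 0.24, adjusted p = 0.00503). PARP14, a mono-ADP-ribosyltransferase, stood at 35.0, 28.9 and 30.6 and 79.4, 69.3, 38.6 and 57.2 CPM (0.96 ± 0.22, adjusted p = 0.00728). SAMD9 stood at 51.7, 21.4 and 91.8 and 230.4, 207, 120.2 and 122 CPM (1.63 ± 0.39, adjusted p = 0.00905). In these 3 genes no library overlapped between groups, and control 2 was the lowest control. HERC5, the main ligase for ISG15, stood at 28.7, 11.4 and 23.2 and 58.2, 56.0, 26.5 and 42.3 CPM (1.12 ± 0.31, adjusted p = 0.0189), and HERC6 at 10.4, 5.77 and 19.8 and 39.5, 40.3, 19.6 and 25.7 CPM (1.38 ± 0.37, adjusted p = 0.0158). The groups of both HERC genes overlapped through preconditioning 3. IRF7 stood at 33.1, 26.8 and 30.8 CPM in control and 19.9, 21.9, 17.5 and 22.0 CPM with preconditioning (−0.58 ± 0.20, adjusted p = 0.0447), without overlap. IFIT3 (1.06 ± 0.39, adjusted p = 0.0572) and ISG15 did not pass.

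The calls of OAS3, PARP14 and SAMD9 held without each library in turn. HERC6 lost its call without control 1 (adjusted p = 0.0745) or 2 (0.0713), HERC5 without control 2 (0.0866), preconditioning 1 (0.0588) or 2 (0.0558), and IRF7 without any of 9 libraries, which included each control and each preconditioning library. The count was 3 without control 2, where 11% of all genes were called. All preconditioning libraries lie in the lower set with control 3 as its only control: within that set SAMD9 was at 0.89 (adjusted p = 0.0626), HERC6 at 0.66 (0.228) and HERC5 at 0.98 (0.0564), and with the set as a term OAS3 alone of the 6 was called.

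The last comparisons set preconditioning+FCCP against FCCP alone and against untreated control. They share the preconditioning+FCCP libraries, and each shares a group with comparisons above. Against FCCP alone, 6 of 37 members were called (16.2%, 4 higher and 2 lower), where 35.7% of all genes were called (17.9% higher, 17.7% lower). IFIT5, IRF1, IFIH1 and HERC5 were higher and IFI35 and IFIT1 lower. The median log2 difference was 0.36, against 0.01 over all genes.

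IFIT5 stood at 7.29, 10.0 and 11.3 CPM with FCCP and 22.1, 29.3 and 19.8 CPM with preconditioning+FCCP (1.31 ± 0.21, adjusted p = 0.000570). IRF1 stood at 22.6, 13.2 and 27.6 and 35.4, 41.3 and 44.4 CPM (0.94 ± 0.25, adjusted p = 0.0101). IFIH1, the sensor MDA5, stood at 17.4, 10.9 and 13.4 and 18.8, 32.0 and 45.1 CPM (1.20 ± 0.35, adjusted p = 0.0157). The libraries of preconditioning+FCCP were above those of FCCP in all 3 genes. HERC5 stood at 12.4, 11.3 and 17.9 and 25.4, 31.3 and 24.0 CPM (0.96 ± 0.33, adjusted p = 0.0333). IFI35 stood at 39.4, 35.5 and 52.3 and 13.2, 18.4 and 21.8 CPM (−1.25 ± 0.22, adjusted p = 0.000842). IFIT1 stood at 17.3, 26.6 and 43.3 and 4.05, 8.13 and 20.5 CPM (−1.42 ± 0.47, adjusted p = 0.0297). The groups overlapped in IFIT1 and were apart in HERC5 and IFI35.

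IFIT5 and IFI35 kept their calls without each library. Within the higher set, where preconditioning+FCCP 3 is the only library of its group, 0 members passed by edgeR (14 at an unadjusted p under 0.05), and IFIT5 was at 1.06 (adjusted p = 0.105). Without FCCP 2 the count was 2, since IRF1 (adjusted p = 0.0576), IFIH1 (0.0796), HERC5 (0.129) and IFIT1 (0.0569) lost their calls. Of all genes 22.8% were called in that fit. IFIH1 also lost its call without FCCP 3 (0.0609) or preconditioning+FCCP 3 (0.0796), HERC5 without FCCP 1 (0.0764) or preconditioning+FCCP 1 (0.0592) or 2 (0.119), and IFIT1 without FCCP 3 (0.146) or preconditioning+FCCP 1 (0.104) or 2 (0.115), while without preconditioning+FCCP 3 it was at −2.25.

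Against untreated control, 12 of 37 members were called (32.4%, 5 higher and 7 lower), where 31.2% of all genes were called (15% higher, 16.2% lower), a share near the background. The median log2 difference was −0.17, against −0.04 over all genes. IFIT1 (−2.86 ± 0.49, adjusted p = 0.00103), IFIT2 (−1.80 ± 0.46, adjusted p = 0.00915), IFIT3 (−1.79 ± 0.42, adjusted p = 0.00543) and OASL (−2.93 ± 0.72, adjusted p = 0.00741) were lower and IRF7 higher (1.44 ± 0.21, adjusted p = 0.000433), with no overlap of libraries, and these 5 held without each library. Within the higher set, where preconditioning+FCCP 3 is the only library of its group, 4 members were higher and 0 lower: IFIT1 was at −2.02 (adjusted p = 0.0749), IFIT2 at −0.89 (0.233), IFIT3 at −1.10 (0.142) and OASL at −1.78 (0.172), while IRF7 kept its call. Within the lower set, with control 3 as the only control, 2 members were higher and 12 lower. SAMD9L, SAMD9 and IFI35 were also lower, and IRF1, IFIH1, IFI6 and BST2 higher. BST2, the tetherin that holds budding virions, stood at 2.12, 1.46 and 3.25 CPM in control and 1.22, 10.3 and 12.2 CPM with preconditioning+FCCP (1.79 ± 0.64, adjusted p = 0.0429), with preconditioning+FCCP 1 below every control. IFI6 stood at 40.1, 37.6 and 229 CPM in control (1.76 ± 0.65, adjusted p = 0.0486). Control 3 was far above the other controls in IFI6: without it the difference was 3.12, and within the lower set of libraries, where control 3 is the only control, it was 0.23 (adjusted p = 0.811).

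Without control 3 the calls of SAMD9 (log2 difference −0.81, adjusted p = 0.0865), SAMD9L (−0.70, adjusted p = 0.0805) and IRF1 (0.58, adjusted p = 0.0937) ended. IFI35 lost its call without control 2 (adjusted p = 0.0580) or preconditioning+FCCP 1 (0.0680), SAMD9L also without preconditioning+FCCP 1 (0.0613), SAMD9 without preconditioning+FCCP 3 (0.0540), and IRF1 without control 2 (0.0715) or preconditioning+FCCP 2 (0.0940) or 3 (0.0857). IFIH1 lost it without control 1 (0.0823) or 2 (0.169), FCCP 3 (0.0520) or preconditioning+FCCP 2 (0.0960) or 3 (0.182), IFI6 without 11 of the 13 libraries and BST2 without 8. The count was 7 without control 2 and 8 without preconditioning+FCCP 2, where 19.2% and 17.9% of all genes were called.

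The 15 members that passed in none of the 6 comparisons by edgeR were ISG15, IFI44, IFI44L, IFI16, MX1, MX2, OAS1, RSAD2, CMPK2, USP18, RIGI, IRF9, PARP9, TRIM22 and XAF1. They include the GTPases MX1 and MX2, which block viral nucleocapsids, USP18, which removes ISG15 and dampens the receptor, and the DNA-binding IFI16, which had 89.0, 112 and 85.4 CPM in control and 68.2, 70.9 and 75.4 CPM with preconditioning+FCCP (−0.41 ± 0.17, adjusted p = 0.0709). MX1, a widely used marker of interferon exposure, stood at 6.54, 4.86 and 19.0 CPM in control, 12.1, 8.23 and 10.1 with FCCP, 17.5, 21.8, 7.81 and 14.8 with preconditioning and 6.31, 16.5 and 30.6 with both, and its groups overlapped in every comparison. RSAD2 (−2.23 ± 0.75, adjusted p = 0.111) and MX2 (−1.57 ± 0.78, adjusted p = 0.269) had large but imprecise differences with FCCP. DESeq2 called RSAD2 there and in preconditioning+FCCP against control, and limma-voom in the latter. Some of the 15 passed by edgeR with a library left out. Among them was MX1 in preconditioning against control without control 3. ISG15 and IFI44 passed in preconditioning+FCCP against control without preconditioning+FCCP 3. IRF9 shares 48.4% of its exon bases with another gene and XAF1 38.3%, IRF1 22.0%, TRIM22 10.7% and IFIT2 10.3% (GENCODE 29), so their counts are less certain.

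**Figure D4:**
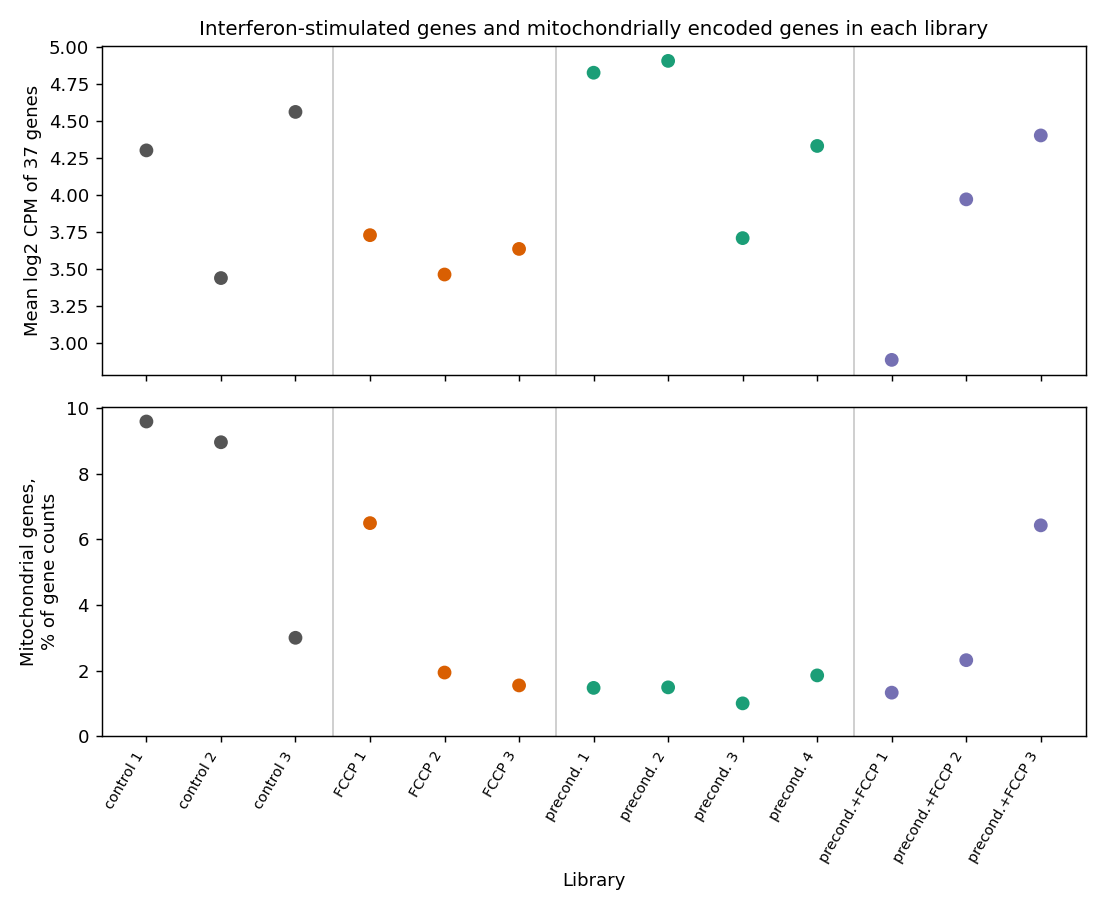
Mean log2 CPM of the 37 members (upper panel) and share of mitochondrially encoded genes in the gene counts (lower panel, %) in each library, with points coloured by group. Within the control group the mean of control 2 is 3.44 and that of control 1 is 4.30, at mitochondrial shares of 8.95% and 9.58%. Control 3 has the highest control mean, 4.56, at the lowest control share, 3.00%.

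Transcripts of the mitochondrial genome made up 9.58%, 8.95% and 3.00% of gene counts in control 1 to 3, 6.49%, 1.94% and 1.55% in FCCP 1 to 3, 1.47%, 1.49%, 1.00% and 1.85% in preconditioning 1 to 4 and 1.33%, 2.32% and 6.42% in preconditioning+FCCP 1 to 3. These are whole-cell poly-A RNA and say nothing of where the RNA was. FCCP 1 and preconditioning+FCCP 3 each had the highest share of their group and the highest mean of the members. Control 3 had the lowest control share and the highest control mean, 4.56. Preconditioning 4 had the highest share of its group and a mean of 4.33, below those of preconditioning 1 and 2. The part of these shares in the results was not tested. Leaving mitochondrially encoded genes out before scaling gave the same 6 counts of called members, which tests only the scaling.

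Few reads were counted on the interferon genes themselves. Reads aligned to several places were not counted, so any such reads from these genes are missing. Of 21 interferon genes 14 had 0 counts in all libraries together, a value that allows up to 3 counts for each, and IFNE was the only one that could be tested. IFNB1, interferon beta, had 12 counts in 6 libraries. IFNE, the epithelial type I interferon, had 176 counts in all, at 2.58, 1.09 and 3.63 CPM in control, 0.208, 0.527 and 0.414 with FCCP, 0.691, 0.227, 0.118 and 0.104 with preconditioning and 0.116, 0.123 and 0.734 with both. It was lower in preconditioning (−3.07 ± 0.72, adjusted p = 0.00810) and preconditioning+FCCP (−2.92 ± 0.78, adjusted p = 0.0116) than in control. CXCL10, the interferon-induced chemokine, had 14 counts in all.

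Of 20 nucleic acid sensing genes outside the list 16 were tested. With FCCP alone 1 fell, the adaptor TRAF3 (−0.87 ± 0.23, adjusted p = 0.0468), and with preconditioning alone 0 passed by edgeR (7 at an unadjusted p under 0.05). Of all genes 3.52% were called with FCCP alone and 23.6% with preconditioning alone. In preconditioning+FCCP against preconditioning 3 rose and 4 fell, or 43.8%, near the 39.4% of all genes called. The fallers included the kinase IKKε gene IKBKE (−2.37 ± 0.29), STING1 (−1.56 ± 0.21) and MAVS (−1.83 ± 0.28), and those that rose were TBK1, TANK and CGAS. MAVS stood at 186, 181, 191 and 176 CPM with preconditioning and 80.0, 45.9 and 29.6 with both, and STING1 at 107, 101, 70.0 and 82.1 and 24.2, 33.0 and 34.2 CPM, without overlap. Against control, IKBKE (−1.78 ± 0.30), STING1 (−1.10 ± 0.22), MAVS (−1.10 ± 0.28) and UNC93B1 were lower, 4 of 16 where 31.2% of all genes were called. Against FCCP alone 4 rose and 3 fell (43.8%, where 35.7% of all genes were called). The median log2 difference of the 16 was −0.19 in preconditioning+FCCP against preconditioning and 0.27 in preconditioning against control. TREX1 and TLR9 had 0 counts, and 100% and 86.3% of their exon bases are shared with other genes, so a count of 0 there does not show absence.

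Of 16 receptor and JAK-STAT genes, all tested, none passed with FCCP alone (1 at an unadjusted p under 0.05, edgeR). JAK1 and IFNLR1 were among those that rose with preconditioning. In preconditioning+FCCP against preconditioning 3 rose, among them the receptor chain IFNGR1 (0.95 ± 0.16). Of this list 3 of 16 were called with preconditioning and 4 of 16 in preconditioning+FCCP against preconditioning, where 23.6% and 39.4% of all genes were called.

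Of 35 further interferon-induced genes 31 were tested. None passed with FCCP alone (4 at an unadjusted p under 0.05, edgeR). The median log2 difference there was −0.06, with 14 values positive and 17 negative. With preconditioning 4 rose and 2 fell, and 1 rose and 14 fell in preconditioning+FCCP against preconditioning, with a median of −0.63. Of all genes 3.52% were called with FCCP alone, 23.6% with preconditioning and 39.4% in preconditioning+FCCP against preconditioning (20.2% higher, 19.2% lower). ADAR, the RNA editing enzyme, rose with preconditioning (1.27 ± 0.20, adjusted p = 0.00186) and GBP1, a guanylate-binding GTPase, fell in preconditioning+FCCP against preconditioning (−1.35 ± 0.23, adjusted p = 0.000383). Against FCCP alone 3 rose and 9 fell, among them GBP2 (−2.49 ± 0.42), and against control 1 rose and 7 fell, where 35.7% and 31.2% of all genes were called.

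Of 18 antigen presentation genes none passed with FCCP alone (7 at an unadjusted p under 0.05, edgeR). Their median log2 difference there was 0.385, against −0.04 over all genes, with 16 values positive and 2 negative. With preconditioning alone TAPBP (1.83 ± 0.33), ERAP1 and TAP1 rose and B2M fell, and in preconditioning+FCCP against preconditioning 1 rose and 6 fell, ERAP2 (−1.17 ± 0.25) among them. These shares, 22.2% and 38.9%, are near those of all genes (23.6% and 39.4%). Of 16 genes of mitochondrial nucleic acid upkeep and release, the protease subunit CLPP (0.86 ± 0.19) and the pore former BAX (0.78 ± 0.20) rose with FCCP alone. That was 12.5% of the list, where 3.52% of all genes were called. In preconditioning+FCCP against preconditioning SUPV3L1 (0.81 ± 0.18), a mitochondrial RNA helicase, rose and PPIF (−1.36 ± 0.19), cyclophilin D, fell, 12.5% of the list where 39.4% of all genes were called.

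Of the cell type markers, those of fibroblasts were mostly lower in the preconditioning+FCCP group. The summed level of the 10 fibroblast markers was 5966 to 12968 CPM in control, 7670.0 to 9709 with FCCP, 7388 to 7949 with preconditioning and 1688 to 3253 with preconditioning+FCCP. In each comparison of preconditioning+FCCP with another group, 8 to 9 of the 10 were called lower. Of all genes 16.2% to 19.2% were called lower in these comparisons. Macrophage and dendritic cell markers summed to 2.10 to 10.1 CPM in a library, with 3 of 12 past the filter, and the plasmacytoid dendritic cell markers CLEC4C and LILRA4 at 0 counts. Of 8 lymphocyte markers none passed the filter and CD3E, CD2 and MS4A1 were at 0 counts. Of 7 endothelial markers 6 passed, at a summed 7.97 to 27.0 CPM. The part of the fibroblast markers' fall in the members' differences was not tested.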

How the data were processed

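Poly-A RNA of 13 AC16 libraries was sequenced, and the authors deposited unnormalised counts for each gene. Per the submitters' processing notes, which give no versions, the tools were HISAT2 and HTSeq and the build hg19. The labels' protocols describe directional and non-directional libraries without saying which was made, and the strand setting and annotation release are not given in the sources used here. Rows without a gene were dropped: they held 2.13% to 5.20% of reads outside genes, 11.0% to 12.4% overlapping several genes and 3.16% to 11.5% aligned to several places in a library. Libraries of 14970803 to 20636229 gene counts remained.

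Members were matched by Ensembl ID and symbol, and exon lengths and overlaps come from GENCODE 29. The default filter of edgeR (4.0.16, R 4.3.3) left 16756 genes. Counts were TMM scaled and tested with edgeR's quasi-likelihood test in a single fit of 13 libraries with a term per group, with Benjamini-Hochberg adjustment over all genes and a threshold of 0.05. The SE was taken as the size of the log2 change over the root of F. The functions were tested on simulated counts. Promoters are from RefSeq, searched on both strands.

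The values of every library are given for members called in a comparison, at most 12 per comparison by adjusted p, and for the 6 members highest per kilobase. Of the 6 further pathway lists up to 3 called genes per comparison are named with values. The 6 promoters are, of members with an entry, those of the 3 highest in mean CPM and, of the rest, the 3 with the smallest adjusted p in any comparison. MX1, IFI16, MX2 and RSAD2 were added after their values were seen, as were library values of MAVS and STING1. One gene of the receptor and JAK-STAT list is not reported here. The members, the lists, the library sets and the alternatives were chosen with earlier results of these data known.

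Alternatives were DESeq2 size factors, library totals, other filters, DESeq2 (1.42.0), limma-voom (limma 3.58.1), the compared groups alone, a replicate block, the library set as a term or apart, mitochondrial genes left out, a threshold of 0.01 and libraries left out.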

Additional observations from a re-analysis of the deposited data

Results flagged for a closer look

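In preconditioning 3, STAT2 stood at 92.1 CPM, far below the other 3 libraries of its group, which lay at 138.1 to 144.3 CPM. It was the 1 gap of this kind among the 37 members' groups of 4 libraries, and chance alone gives about 1 in 20.

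The FCCP effect differed with preconditioning, by the interaction term of edgeR's quasi-likelihood test, in 4 members (10.8%), where 19% of all genes were called. Values are log2 effects with preconditioning minus without. The difference was 1.57 for IFIT5, 1.03 for IRF7, −0.99 for IFI35 and −1.96 for SAMD9. The effects on IFI35 had opposite signs and neither passed on its own.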

How the results depend on the processing

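No called member changed direction in any of 624 fits of a called difference without 1 library or of 627 under the other alternatives. The call ended in 98 and 103 of these. The stricter threshold used the same fit, so its values could not change direction. Leaving out a library of a group not compared could hardly change a difference either. For FCCP against control, 4 members were called, 12 without a filter on low counts, 2 with the compared groups alone, 2 within the higher set of libraries, 1 at an adjusted p under 0.01, and 2 to 5 with a library left out. For preconditioning against control, 6 were called, 11 without a filter, 1 (and 2.74% of all genes) with a term for the library set, 16 when preconditioning+FCCP 3, FCCP 1 and control 3 were dropped (43.2% of the members and 48.9% of all genes), 3 within the lower set (2 higher, 1 lower), 3 at the stricter threshold and 3 to 8 with a library left out. For preconditioning+FCCP against FCCP, 6 were called, 11 without a filter, 12 without those 3 libraries, 0 within the higher set by edgeR (14 at an unadjusted p under 0.05), where 0.0168% of all genes were called, 2 at the stricter threshold and 2 to 8 with a library left out. For preconditioning+FCCP against preconditioning, 16 were called, and 12 to 19 with a library left out. For preconditioning+FCCP against control, 12 were called, 6 with the compared groups alone, 4 within the higher set (4 higher, 0 lower, where 1.41% of all genes were called), 14 within the lower (2 higher, 12 lower, 31.4% of all genes), 5 at the stricter threshold and 7 to 13 with a library left out. For the interaction, 4 were called, 10 without a filter, 7 with a term for the library set, 10 without those 3 libraries, 1 at the stricter threshold and 2 to 7 with a library left out. Without those 3 libraries 53.9% of all genes were called for preconditioning+FCCP against FCCP and 37.3% for the interaction, above the 32.4% and 27% of members. The same omission gave 6 members (16.2%) and 18.1% of all genes for FCCP against control. Each of the 3 libraries was the one least like its group in gene counts, by chi-square per degree of freedom between 2 libraries. Pairs with control 3 had 154 and 168, and the other control pair 22.3. Pairs with FCCP 1 had 80.7 and 105, and the other FCCP pair 22.6. Pairs with preconditioning+FCCP 3 had 88.75 and 126, and the other pair of that group 28.7. For FCCP against control, 0.111% of all genes were called with the compared groups alone and 0.137% at the stricter threshold. With the compared groups alone 19.2% were called for preconditioning+FCCP against control. Without a filter 2.96% to 18.2% of genes were called over the 6 comparisons. With a library left out, 0.818% to 5.1% of all genes were called for FCCP against control and 8.68% to 34.8% for preconditioning against control. For preconditioning+FCCP it was 22.1% to 40.8% against FCCP, 29% to 44.1% against preconditioning and 17.9% to 38.2% against control. For the interaction it was 11.6% to 26.1%, and 26.9% with a term for the library set. At the stricter threshold 0.137% to 24% were called over the 6 comparisons. The cause of these moves was not tested beyond what each alternative leaves out.

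Scaling by library totals without TMM factors moved the median over all genes by 0.02 to 0.20 on the log2 scale. The split of calls became 6 higher and 0 lower for preconditioning against control (5 and 1 as reported), 6 and 2 for preconditioning+FCCP against FCCP (4 and 2), 7 and 5 for preconditioning+FCCP against control (5 and 7) and 3 and 2 for the interaction (2 and 2). The median difference of the members in preconditioning+FCCP against control was 0.44 within the higher set and −0.90 within the lower, against −0.17.

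Replicate numbers did not pair the libraries. Same-numbered libraries of different groups correlated at −0.200 to 0.158 in their deviations over 18 pairs, and 2 of 12 libraries correlated best with their own number. With a replicate block, 1 member was called for FCCP against control, 7 for preconditioning+FCCP against control and 2 for the interaction, and 4, 5 and 11 for the other comparisons in the order above. The shares of all genes called with the block were 0.316%, 23.5%, 11.3%, 11%, 29.3% and 29.9%, in the same order as these counts.

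Fits within a set leave single libraries in some groups, which are then assumed to vary like the others. Rare members such as CMPK2, RIGI and RSAD2 are limited by depth.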
